A study of Papio anubis with 24 samples.

Results

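Chromosomes 2 and 5 carried the fewest sites of enriched DNA methylation per Mb among the 20 autosomes in pluripotent cells of the olive baboon (Papio anubis). Their members are all peaks placed on these chromosomes in the deposited MeDIP-seq lists, 9134 on chromosome 2 and 9214 on chromosome 5, or 18348 of 211395 peaks in all. The chromosomes were chosen by the measured peak density of these same lists, so the density itself and every value that follows from it are a description and carry no test. Chromosome 2 held 7635 peaks of the embryonic stem cell (ESC) list and 1499 of the induced pluripotent stem cell (iPSC) list. Chromosome 5 held 7547 and 1667.

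MeDIP-seq sequences DNA fragments pulled down with an antibody against 5-methylcytosine, beside input libraries of the same kind of DNA taken without the antibody. The ESC list belongs to the lines B4 and B15 and the iPSC list to the lines 160-2 and M14939#3, all grown on feeder cells, with 3 MeDIP and 3 input libraries per line. The titles of all libraries of the last line carry #3, while the cell line label of 5 of its 6 libraries gives another number after the hash sign. Neither list separates lines or libraries, whether feeder cells were removed is not stated in the labels, and cell type cannot be told apart from line. Intervals below are exact 95% intervals that cover counting error only. They treat peaks or windows as independent, which neighbours on a chromosome are not. No replicate error exists for any difference.

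In mammalian DNA most methylation sits on cytosine followed by guanine (CpG), and these dinucleotides are unevenly spread: they are dense in gene-rich parts and toward many chromosome ends, and thin in gene-poor parts. The antibody captures a fragment more readily the more methylated CpGs it carries. A stretch of thinly spaced CpGs can thus give few peaks even where most of its CpGs are methylated, and a peak marks methylated CpGs close together. Genes are not assigned here, because no label or header names the genome build. Positions and chromosome numbers follow the lists, counted from 1.

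Over its span of 188.3 Mb, taken as the end of the last peak in either list, chromosome 2 had 40.6 ESC peaks per Mb (39.6 to 41.5) and 7.96 iPSC peaks per Mb (7.56 to 8.38). Chromosome 5, with a span of 183.7 Mb, had 41.1 ESC peaks per Mb (40.2 to 42.0) and 9.07 iPSC peaks per Mb (8.64 to 9.52). The next sparsest autosome, chromosome 6, had 44.2 and 9.84, and the other 18 autosomes together had 61.4 and 16.8. Chromosome 2 and chromosome 5 did not differ in ESC density beyond counting error (ratio 0.987, 0.956 to 1.02), while in the iPSC list chromosome 2 was the sparser of the pair (ratio 0.877, 0.818 to 0.941). The iPSC intervals of chromosomes 5 and 6 overlap slightly.

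**Figure D1:**
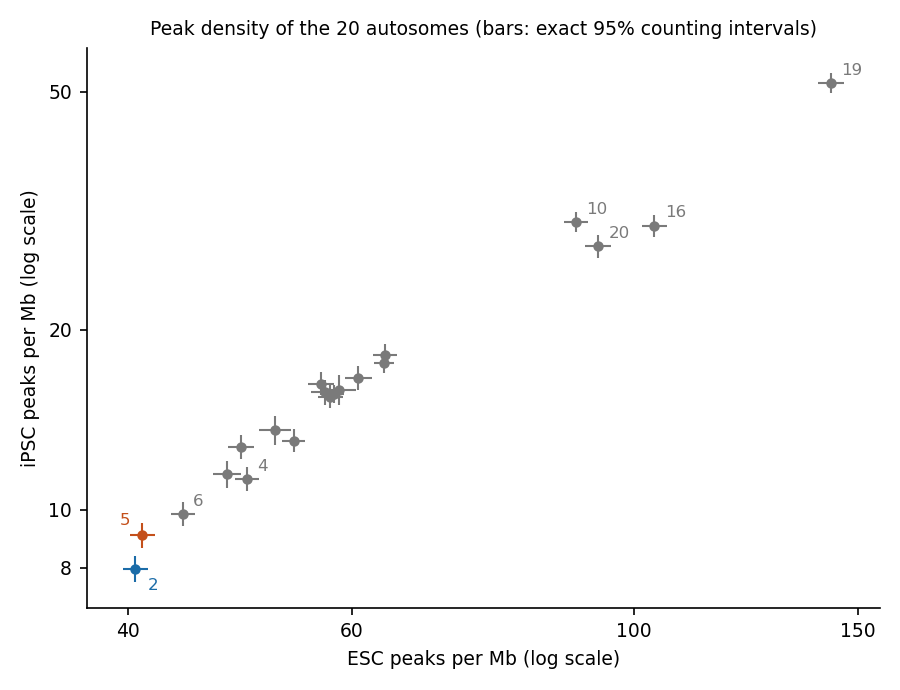
Peak density of the 20 autosomes, with ESC peaks per Mb on the horizontal and iPSC peaks per Mb on the vertical axis, both log scales; bars are exact 95% counting intervals and selected chromosomes are numbered. Chromosome 2 (blue, 40.6 and 7.96) and chromosome 5 (orange, 41.1 and 9.07) stand at the lower left, just below chromosome 6 (44.2 and 9.84).

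Relative to the other 18 autosomes, the shortfall was larger in the iPSC list than in the ESC list on both chromosomes. Chromosome 2 had 0.660 of their ESC density (0.645 to 0.676) and 0.473 of their iPSC density (0.449 to 0.498). Chromosome 5 had 0.669 (0.653 to 0.685) and 0.539 (0.513 to 0.566). Put as iPSC peaks for every 100 ESC peaks, chromosome 2 had 19.6 (18.6 to 20.8) and chromosome 5 had 22.1 (20.9 to 23.3), against 27.4 on the other autosomes, which ranged singly from 22.3 on chromosome 6 to 36.2 on chromosome 19. Peaks covered 0.962% of chromosome 2 in the ESC list and 0.227% in the iPSC list. On chromosome 5 they covered 0.998% and 0.292%, and on the other autosomes 1.52% and 0.537%.

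The windows of 1 Mb, assigned by peak start, showed that the chromosomes are sparse in different ways. Chromosome 2 was low and fairly even: the middle 50% of its 189 windows held 24 to 51 ESC peaks (median 35) and 3 to 9 iPSC peaks (median 5). Chromosome 5 was lower still over most of its length, with ends that were dense beside its interior though not beside the ends of other autosomes: the middle 50% of its 184 windows held 20 to 44 ESC peaks (median 29) and 2 to 7 iPSC peaks (median 4). The median window of the other autosomes held 45 ESC and 9 iPSC peaks. Singly their ESC median was below that of chromosome 2 on chromosomes 6 (32.5) and 17 (33.5), and equal to it on chromosome 12 (35). Chromosome 5 thus had the lowest median window of the 20 autosomes in both lists, whereas by the mean chromosome 2 was lower.

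The densest 10% of windows, taken in each list by its own counts, showed the contrast. On chromosome 5 the 18 windows richest in ESC peaks held 33.0% of its ESC peaks, and the 18 richest in iPSC peaks held 55.9% of its iPSC peaks. The latter was the highest share of the 20 autosomes, the other 18 ranging from 20.8% to 50.4%. On chromosome 2 the 19 windows richest in each list held 24.1% of its ESC peaks and 36.1% of its iPSC peaks. The windows richest in ESC peaks held 52.6% of the iPSC peaks of chromosome 5 and 32.1% of those of chromosome 2. The SD of the iPSC count per window divided by its mean was 1.85 on chromosome 5 and 1.05 on chromosome 2, and singly 0.573 to 1.80 on the others. Only 5 windows of chromosome 2 (2.65%) reached 100 ESC peaks, against 15 (8.15%) on chromosome 5 and 15.3% of windows on the other autosomes.

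**Figure D2:**
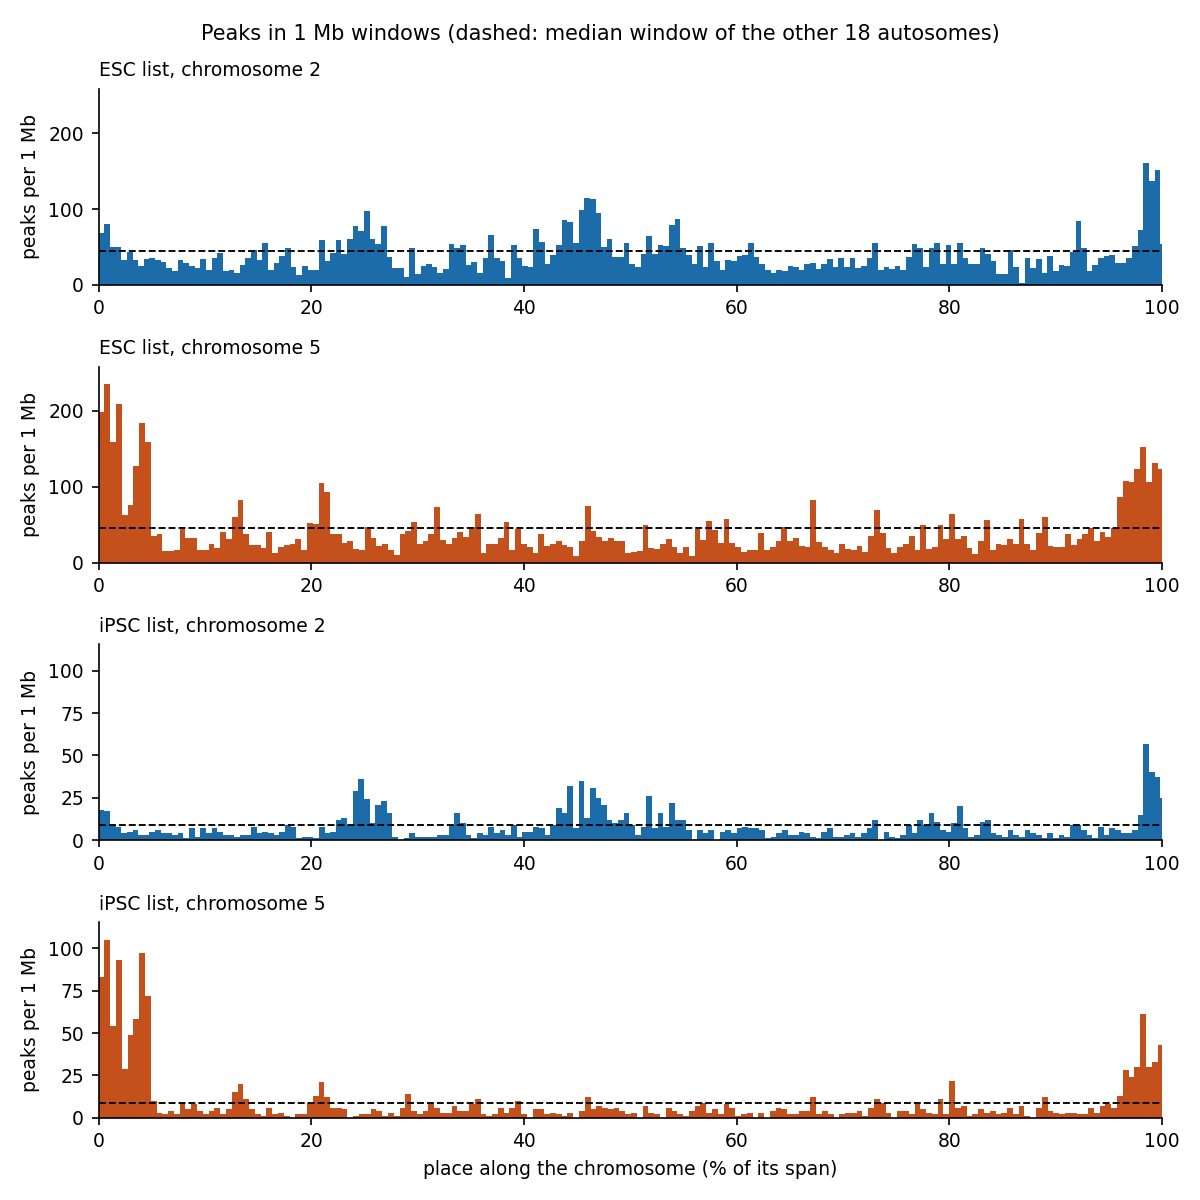
Peaks in each 1 Mb window along chromosome 2 (blue) and chromosome 5 (orange), as a percentage of the span; the dashed line is the median window of the other 18 autosomes, 45 ESC and 9 iPSC peaks, and the last window of each chromosome is partial. Chromosome 5 is dense at both ends and low between them, with medians of 29 ESC and 4 iPSC peaks, while chromosome 2 has a weak left end, a dense right end and raised zones inside.

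At the start of chromosome 5, all of the first 9 windows held 63 to 235 ESC and 29 to 105 iPSC peaks. These 9 Mb, bounded after their values were seen as the run of windows with at least 60 ESC peaks, carried 1411 ESC peaks (18.7% of the chromosome) and 640 iPSC peaks (38.4%). The window from 1 to 2 Mb was the densest of the chromosome in both lists, with 235 ESC and 105 iPSC peaks, followed in the ESC list by 3 to 4 Mb (209 and 93) and 0 to 1 Mb (199 and 83). In the iPSC list the second densest was 7 to 8 Mb, with 184 ESC and 97 iPSC peaks. The rise ended within 1 window: the window from 8 to 9 Mb held 159 ESC and 72 iPSC peaks and the window from 9 to 10 Mb held 35 and 10.

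At its other end, the windows from 176 Mb onward held 87 to 153 ESC and 13 to 61 iPSC peaks, in all 939 and 262. Between these blocks, from 9 to 176 Mb, chromosome 5 had 31.1 ESC peaks per Mb (30.3 to 32.0) and 4.58 iPSC peaks per Mb (4.26 to 4.92). The start of the chromosome had 157 and 71.1 per Mb, so the drop into the interior was 5.04-fold in the ESC list and 15.5-fold in the iPSC list. iPSC peaks per 100 ESC peaks were 45.4 in the first 9 Mb (41.2 to 49.8), 27.9 from 176 Mb (24.2 to 32.0) and 14.7 in between (13.6 to 15.9).

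On chromosome 2 the ends were unequal. Its first 5 Mb held 56.4 ESC and 11.2 iPSC peaks per Mb, the lowest of all 40 autosomal ends in both lists. Its last 5 Mb held 123 and 36.0 per Mb, which placed it 9th and 6th from the lowest. The 3 densest windows of the chromosome lay there in both lists: 185 to 186 Mb with 161 ESC and 57 iPSC peaks, 187 to 188 Mb with 152 and 37, and 186 to 187 Mb with 137 and 40. Within 5 Mb of either end lay 11.8% of its ESC peaks and 15.7% of its iPSC peaks, the lowest shares of the 20 autosomes, where an even spread would give 5.31%. Chromosome 5, with a nearly equal span, had 20.3% and 34.0% there.

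Inside chromosome 2, further raised zones lay far from its ends. From 45 to 51 Mb, 6 windows held 439 ESC and 143 iPSC peaks, or 73.2 and 23.8 per Mb. From 82 to 89 Mb, 7 windows held 646 and 159, or 92.3 and 22.7 per Mb. These zones, also chosen after their values were seen, made up 9.54% and 10.6% of the iPSC peaks of the chromosome. Each zone includes a window below 60 ESC peaks, with 54 from 49 to 50 Mb and 55 from 84 to 85 Mb. Runs of neighbouring windows with at least 60 ESC peaks inside chromosome 2 were at most 5 windows long, from 44 to 49 Mb. The next was 4 windows, from 85 to 89 Mb. On chromosome 5, outside its end blocks, such runs were 2 windows long at most, from 23 to 25 Mb (143 ESC and 35 iPSC peaks) and from 38 to 40 Mb (198 and 33).

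By distance to the nearer end, chromosome 2 was below the other autosomes out to 40 Mb and slightly above those of them that reach farther. Within 1 Mb of an end it had 119 ESC peaks per Mb against 221 on the other autosomes, and between 5 and 10 Mb 33.9 against 88.9. More than 40 Mb from an end it had 41.7 ESC peaks per Mb (40.5 to 42.9) against 39.1 (38.7 to 39.5). In the iPSC list it had 8.52 (7.98 to 9.09) against 7.56 (7.37 to 7.75). Chromosomes 16, 18, 19 and 20, with spans of 74.9, 72.5, 51.4 and 72.0 Mb, have no part that far from an end. The values of the others there leave them out, and chromosomes 16, 19 and 20 were among the densest autosomes. Chromosome 5 was also below the other autosomes within 1 Mb of an end, with 177 against 221 ESC peaks and 65.5 against 93.4 iPSC peaks per Mb. Of the 40 ends, its first 5 Mb ranked 22 (ESC) and 20 (iPSC) from the lowest, and its last 5 Mb ranked 12 and 10. Between 5 and 10 Mb from an end its ESC density was 94.1 per Mb (88.2 to 100.3) against 88.9 (87.6 to 90.3), and its iPSC density was above the others, at 36.2 (32.6 to 40.1) against 27.3 (26.5 to 28.1). From 10 to 20 Mb it fell to 28.3 ESC and 3.80 iPSC peaks per Mb, against 67.1 and 17.4. Beyond 40 Mb it stayed low, with 29.4 peaks per Mb in the ESC list and 4.06 in the iPSC list.

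**Figure D3:**
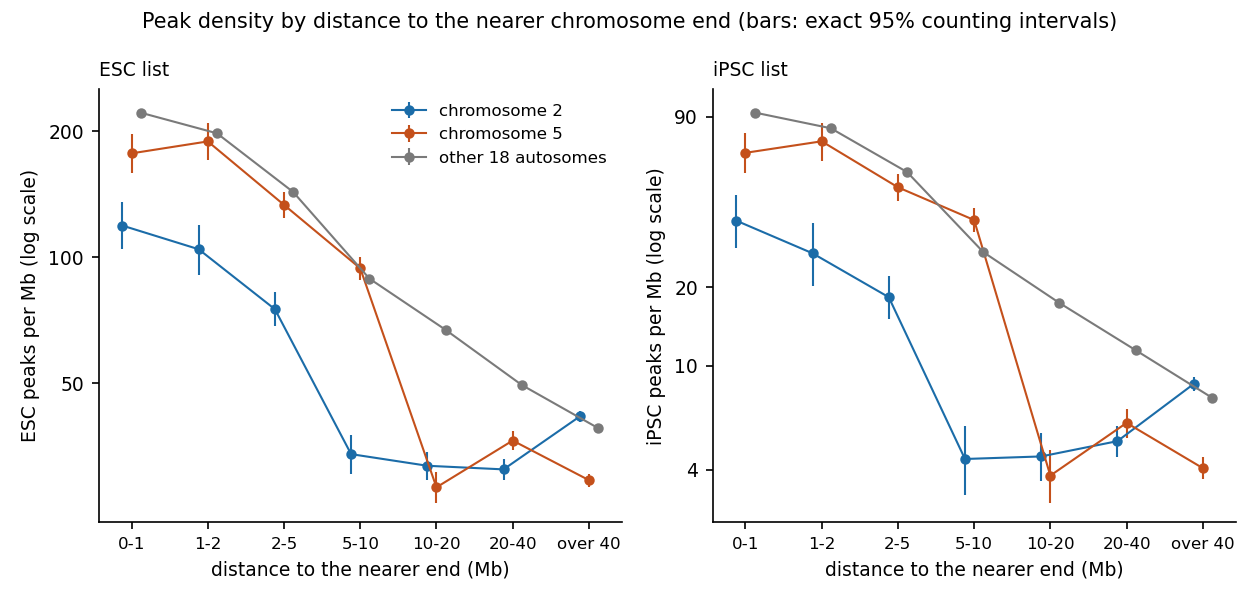
ESC (left) and iPSC (right) peaks per Mb, on log scales, by distance to the nearer chromosome end, for chromosome 2, chromosome 5 and the other 18 autosomes together; bars are exact 95% counting intervals. Chromosome 2 is lowest near the ends but reaches 41.7 ESC peaks per Mb in the middle, against 39.1 on the other autosomes there. Chromosomes 16, 18, 19 and 20 have no part more than 40 Mb from an end. Chromosome 5 drops between 10 and 20 Mb to 28.3.

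The order of the autosomes therefore depended on the ends. Without 5 Mb at each end chromosome 5 was the sparsest autosome, with densities of 34.6 (ESC) and 6.34 (iPSC). Chromosome 2 took rank 2 in the ESC list (37.8) and rank 3 in the iPSC list (7.08). Without 10 Mb at each end, a setting chosen after seeing the data, chromosome 5 had 31.0 and 4.51, lowest in both lists. Chromosome 2 then took rank 5 in both, with 38.0 and 7.24, above chromosomes 6, 12 and 17. Without 20 Mb, likewise chosen after seeing the data, chromosome 5 was still lowest in the iPSC list (4.61) but took rank 2 in the ESC list, with 31.4 against 30.2 on chromosome 17. Chromosome 2 took rank 9 in both, with 38.9 ESC and 7.61 iPSC peaks per Mb against 43.8 and 9.31 on the other autosomes. The spans of both chromosomes are among the longest, so a smaller part of each lies near an end. The part of span in their density was not tested. Other long autosomes differed in density. Chromosomes 1 and 3, with spans of 217.5 and 181.3 Mb, had 58.1 and 63.6 ESC peaks per Mb. Chromosomes 6 and 4, with spans of 175.4 and 166.1 Mb, had 44.2 and 49.6.

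Windows without any iPSC peak numbered more on chromosome 5 than on chromosome 2, with overlapping intervals. Over all autosomes 2.80% of 2604 windows lacked one. On chromosome 2 there were 4 such windows of 189 (2.12%, 0.580 to 5.33%), a share near that of all autosomes. On chromosome 5 there were 11 of 184 (5.98%, 3.02 to 10.4%), the highest share of the 20 autosomes, with an interval that begins just above the share over all of them. With windows shifted by 0.5 Mb the share was 4.32% on chromosome 5 (1.89 to 8.34%), an interval that includes the 2.64% of all autosomes, and 1.59% on chromosome 2. With peaks of a −log10 q of at least 5 it was 4.76% on chromosome 2 (2.20 to 8.85%) and 8.70% on chromosome 5 (5.05 to 13.7%), against 4.80% over all autosomes.

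The 4 windows of chromosome 2 without an iPSC peak began at 53, 105, 109 and 138 Mb and held 20 to 31 ESC peaks. The 11 of chromosome 5 began at 33, 43, 74, 82, 93, 97, 113, 115, 127, 137 and 161 Mb and held 8 to 28. Windows with 3 or fewer iPSC peaks were common on both, at 32.3% of chromosome 2 (25.7 to 39.4%) and 44.0% of chromosome 5 (36.7 to 51.5%), against 23.3% on the other autosomes (21.6 to 25.1%). Singly the others ranged from 1.92% on chromosome 19 to 42.6% on chromosome 6, with 32.3% on chromosome 4. Neither chromosome was thus set apart from the sparsest of the others. Windows with under 20 ESC peaks separated chromosomes 2 and 5 from each other more. They made up 11.1% on chromosome 2 (7.01 to 16.5%), close to the 10.5% of the other autosomes, and 22.3% on chromosome 5 (16.5 to 29.0%).

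No window of either chromosome was free of ESC peaks. The emptiest on chromosome 2 was 163 to 164 Mb, with 3 ESC and 2 iPSC peaks, the lowest ESC count of any autosomal window. The longest run without an ESC peak on the chromosome, 457 kb from 162990929 to 163448287, reached into it and held 1 iPSC peak. The next emptiest windows, 72 to 73 Mb and 54 to 55 Mb, held 9 ESC and 3 iPSC, and 11 ESC and 1 iPSC peaks. On chromosome 5 the emptiest were 82 to 83 Mb (8 ESC, 0 iPSC), 102 to 103 Mb (9 and 4) and 51 to 52 Mb (10 and 1). The longest run without an ESC peak there was 429 kb, from 82560164 to 82989380, with 0 iPSC peaks.

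Between one iPSC peak and the next, stretches of at least 1 Mb numbered 14 on chromosome 2 and 24 on chromosome 5. Per 100 Mb this is 7.44 (4.07 to 12.5) and 13.1 (8.37 to 19.4), against 6.12 (5.14 to 7.24) on the other autosomes. Such stretches took up 9.73% of chromosome 2 and 17.2% of chromosome 5, the latter the highest share of the 20 autosomes, with chromosome 6 next at 16.6%. None lay within 14.0 Mb of an end of chromosome 5 or within 17.7 Mb of an end of chromosome 2. Chromosome 2, despite the lowest iPSC density, thus had a share of long stretches close to the 8.65% of the other autosomes.

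The longest on chromosome 2 ran 2.34 Mb, from 52611677 to 54955051, and held 40 ESC peaks. It began within 2 Mb of the raised zone that ends at 51 Mb. Next came 37141649 to 38833029 (1.69 Mb, 28 ESC peaks) and 137735928 to 139355162 (1.62 Mb, 29 ESC peaks). The fourth and the fifth were 134039002 to 135457333 (1.42 Mb, 30 ESC peaks) and 126673034 to 127975797 (1.30 Mb, 33 ESC peaks). The last 3 named lay within one region, between 126673034 and 139355162.

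On chromosome 5 the longest ran 1.95 Mb, from 160130307 to 162077854, with 42 ESC peaks. It was followed by 73379562 to 75188582 (1.81 Mb, 35 ESC peaks) and 112421168 to 114229656 (1.81 Mb, 31 ESC peaks). The fourth, from 32921664 to 34713418, held 50 ESC peaks over 1.79 Mb. A further stretch, 31700279 to 32921427 (1.22 Mb, 27 ESC peaks), ended just before it, with 1 iPSC peak between them. The fifth was 136688106 to 138362022 (1.67 Mb, 24 ESC peaks). The stretches of chromosome 5 were more numerous but not longer, with medians of 1.21 Mb against 1.24 Mb on chromosome 2 and 1.28 Mb on the other autosomes, where the longest reached 3.47 Mb.

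ESC peaks were thin but present in all of these stretches. Together the 14 of chromosome 2 held 404 ESC peaks, or 22.1 per Mb, and the 24 of chromosome 5 held 605, or 19.2 per Mb. The same kind of stretch on the other autosomes held 20.1 per Mb. Singly they ranged from 16.6 to 32.5 ESC peaks per Mb on chromosome 2 and from 10.4 to 38.0 on chromosome 5. They contained 5.29% of the ESC peaks of chromosome 2 and 8.02% of those of chromosome 5, against 2.83% on the other autosomes. Singly the others reached 8.07% on chromosome 6 and 5.21% on chromosome 8, so both chromosomes lay within their range.

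The ESC peaks inside the stretches were not the weak ones by fold. The deposited fold compares the fragments piled up at a summit with the number expected there, the background. Its median was 2.57 inside the stretches of chromosome 2 against 2.43 for other ESC peaks of the chromosome without overlap, and 2.59 against 2.40 on chromosome 5. The other autosomes showed the same order, 2.57 against 2.31. The background recovered from the deposited values was lower inside, at 18.8 fragments against 22.4 on both chromosomes, and the recovered pileup was lower too, at 50 against 57 and at 52 against 58 fragments. A lower background raises the fold for a given pileup, and its part in these values was not tested.

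**Figure D4:**
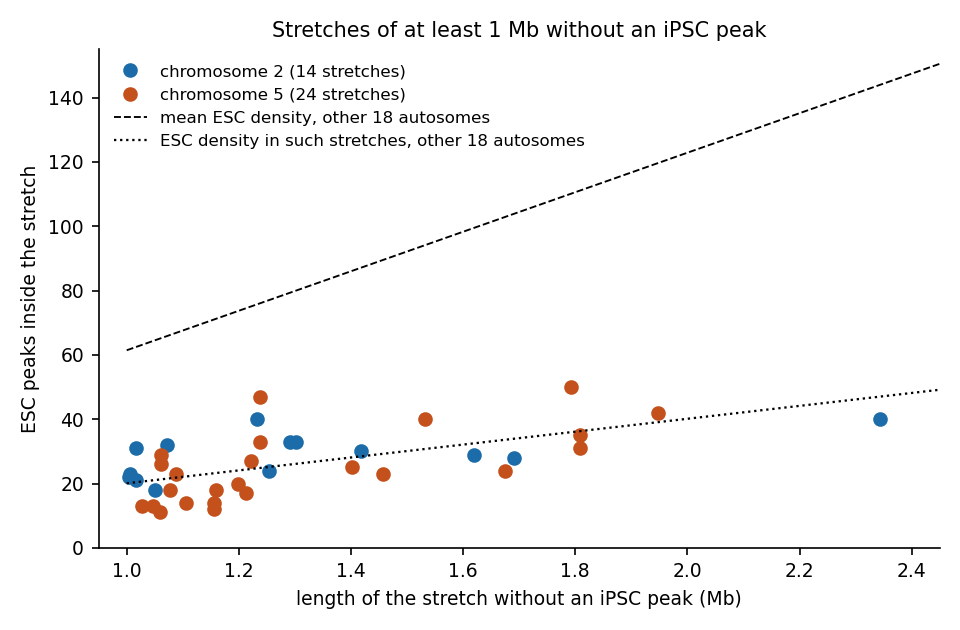
Length of each stretch of at least 1 Mb without an iPSC peak against the number of ESC peaks inside it, for the 14 stretches of chromosome 2 and the 24 of chromosome 5; the dashed line is the mean ESC density of the other 18 autosomes (61.4 per Mb) and the dotted line their density inside such stretches (20.1 per Mb). All points lie below the dashed line and scatter around the dotted one.

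In windows of like ESC count, the gap to the other autosomes varied with the class. Below 20 ESC peaks per window, chromosome 2 had 16.7 iPSC per 100 ESC peaks (12.3 to 22.4), chromosome 5 had 15.2 (12.1 to 18.9) and the others 14.0 (12.7 to 15.4). From 20 to 39 the values were 14.8 (13.4 to 16.5), 13.8 (12.3 to 15.5) and 16.9 (16.3 to 17.5), so that the interval of chromosome 5 lay below that of the others and the interval of chromosome 2 met it. From 60 to 99 they were 25.0 (22.3 to 27.9), 23.6 (20.3 to 27.4) and 25.8 (25.2 to 26.4). The classes under 40 took in 62.4% of the windows of chromosome 2, 70.7% of those of chromosome 5 and 42.6% of the others.

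Chromosome 5 stood further below the others in the class of 40 to 59 ESC peaks. Its 26 windows had 13.7 iPSC per 100 ESC peaks (11.6 to 16.0), against 20.3 (18.4 to 22.5) on chromosome 2 and 21.8 (21.2 to 22.5) on the others. This was the lowest of the 20 autosomes in that class, with chromosome 16 next at 13.7 from 6 windows. At least 10 Mb from the ends, chromosome 5 had 13.5 (11.4 to 16.0) against 21.2 (20.5 to 21.9), and in the class of 60 to 99 it had 18.4 (15.2 to 22.2) against 24.3 (23.7 to 25.0). Chromosome 2 stood apart in the highest class, where its 5 windows had 26.3 (22.1 to 31.0) against 37.3 (34.4 to 40.4) for 15 windows of chromosome 5 and 35.8 (35.3 to 36.4) for the others. This class has no upper bound, so its windows are not of like ESC count. The fullest window held 161 ESC peaks on chromosome 2, 235 on chromosome 5 and 384 on the others. The part of this in the gap was not tested.

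**Figure D5:**
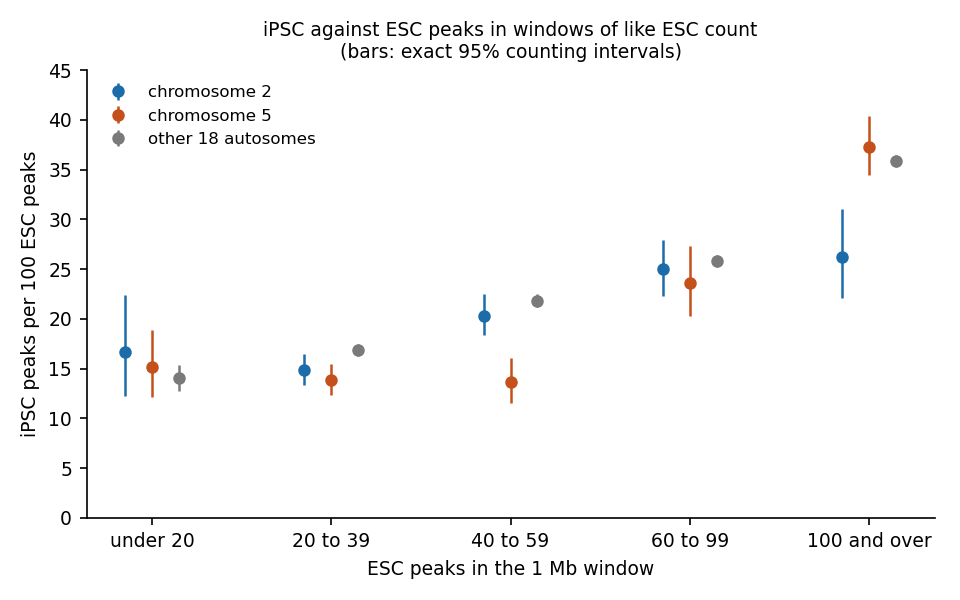
iPSC peaks per 100 ESC peaks in 1 Mb windows grouped by their ESC count, for chromosome 2, chromosome 5 and the other 18 autosomes; bars are exact 95% counting intervals. In the class of 40 to 59 ESC peaks chromosome 5 (13.7) lies below the others (21.8), and in the class of 100 and over chromosome 2 (26.3) lies below them (35.8).

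Window counts of the lists ranked less alike on these chromosomes than on any other autosome. Spearman's correlation across windows was 0.800 on chromosome 2 and 0.740 on chromosome 5, and singly 0.801 to 0.915 on the others, so the value of chromosome 2 hardly differs from the lowest of them. The windows of a chromosome share libraries and lie beside each other, and low counts leave many ties.

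Overlap looked different from either list. Of the iPSC peaks on autosomes, 66.5% overlapped an ESC peak by at least 1 bp. On chromosome 2 it was 991 of 1499 (66.1%, 63.7 to 68.5%) and on chromosome 5 1129 of 1667 (67.7%, 65.4 to 70.0%), so neither differed from that share beyond counting error. Of the ESC peaks on autosomes, 18.1% overlapped an iPSC peak. On chromosome 2 it was 999 of 7635 (13.1%, 12.3 to 13.9%) and on chromosome 5 1155 of 7547 (15.3%, 14.5 to 16.1%), the lowest and second lowest of the 20 autosomes. With nearly equal shares of iPSC peaks in overlap, the ESC share follows the number of iPSC peaks per ESC peak, so it is not a separate observation.

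Within chromosome 5, ESC overlap followed the dense start: 30.5% of ESC peaks in the first 9 Mb overlapped an iPSC peak (28.1 to 33.0%), 21.4% from 176 Mb (18.8 to 24.2%) and 10.1% in between (9.26 to 10.9%). The iPSC share did not follow it, at 64.7% (60.8 to 68.4%), 74.4% (68.7 to 79.6%) and 68.0% (64.5 to 71.3%). On chromosome 2, iPSC overlap was higher at the dense right end than in the interior zones. It was 77.0% from 184 Mb (70.0 to 83.0%), 54.5% from 45 to 51 Mb (46.0 to 62.9%) and 61.6% from 82 to 89 Mb (53.6 to 69.2%).

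Peaks without overlap lay farther from the other list than on the other 18 autosomes together. Such distances depend on peak density, by which the chromosomes were chosen. The median ESC peak without overlap was 40.5 kb from the nearest iPSC peak on chromosome 2 and 37.2 kb on chromosome 5, against 17.6 kb on the other autosomes. At least 100 kb away were 25.3% and 26.2% of them, against 14.1%. For iPSC peaks without overlap the median distance to an ESC peak was 6.36 kb on chromosome 2 and 4.27 kb on chromosome 5, against 3.46 kb. Neighbouring iPSC peaks were a median of 49.7 kb apart on chromosome 2, 23.2 kb on chromosome 5 and 15.7 kb on the others. Singly the others ranged from 8.11 kb on chromosome 19 to 26.5 kb on chromosome 7, so chromosome 5 lay within their range.

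Peaks of chromosome 2 were narrow, while the median widths on chromosome 5 lay within the range of the other autosomes. In the iPSC list the median width was 228 bp on chromosome 2 (225 to 232 bp), the lowest of the 20 autosomes, 237 bp on chromosome 5 (233 to 242 bp) and 242 bp on the others (241 to 243 bp). In the ESC list it was 211 bp (210 to 212 bp), 213 bp (211 to 214 bp) and 215 bp (215 to 216 bp). Singly the others ranged from 235 to 254 bp (iPSC) and from 212 to 230 bp (ESC). The intervals of chromosome 2 overlap those of chromosome 4 in the iPSC list (231 to 240 bp) and chromosome 12 in the ESC list (211 to 214 bp). Widths of at least 1 kb were found for 20 iPSC peaks of chromosome 2 (1.33%, 0.817 to 2.05%) and 40 of chromosome 5 (2.40%, 1.72 to 3.25%). On the others the share was 2.12% (1.97 to 2.27%). Singly they ranged from 1.39% on chromosome 16 to 2.95% on chromosome 15, with 1.39% on chromosome 18. Chromosome 2 was thus lowest only by a small margin. Of the 40 wide iPSC peaks of chromosome 5, 23 lay in its first 9 Mb and 9 from 176 Mb onward. In the ESC list each chromosome had 5 peaks of this width. That is 0.0655% on chromosome 2 (0.0213 to 0.153%) and 0.0663% on chromosome 5 (0.0215 to 0.155%). The share on the others, 0.117%, lay within both intervals.

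Width on chromosome 5 also changed along its length: the median iPSC peak was 256 bp wide in the first 9 Mb, 247 bp from 176 Mb and 226 bp in between. The interior of chromosome 2, from 2 to 184 Mb, had the same 226 bp. The widest iPSC peak of chromosome 2 spanned 2175 bp (187816546 to 187818720, fold 3.13) and contained the widest ESC peak of the chromosome, of 1326 bp (187817356 to 187818681, fold 1.53), 0.454 Mb from the end. On chromosome 5 the widest iPSC peak spanned 2358 bp (1601124 to 1603481, fold 2.87) and overlapped an ESC peak of fold 1.46. The widest ESC peak there spanned 1372 bp (908861 to 910232, fold 2.55) and overlapped an iPSC peak of fold 3.56.

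The fold of ESC peaks was high on both chromosomes, where the background was low. The median ESC fold was 2.41 on chromosome 2 and 2.37 on chromosome 5, the highest of the 20 autosomes, against 2.27 on the other 18 together. The median recovered background was 24.2 fragments at ESC peaks of both chromosomes, against 29.5 on the others. In the iPSC list the median fold was 2.64 and 2.67 against 2.58, and the median background was 22.0 and 23.7 against 26.0 fragments. There chromosome 5 had the highest fold of the 20 autosomes, but chromosome 2 (2.635) was below chromosomes 12, 13 and 18 (2.656, 2.643 and 2.639). The iPSC background of chromosome 4 (23.0) was below that of chromosome 5. Along chromosome 5 the ESC background was 46.5 fragments in the first 9 Mb, 20.6 in the interior and 29.5 from 176 Mb, with folds of 2.03, 2.48 and 2.32. Background thus moved with peak density along chromosome 5. On chromosome 2 the order differed. ESC background was 34.0 fragments from 45 to 51 Mb (73.2 ESC peaks per Mb) and 29.1 from 82 to 89 Mb (92.3 per Mb). From 184 Mb it was 33.7 (135 per Mb). The part of background in the number of peaks called was not tested.

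At 972 pairs of peaks on chromosome 2 and 1098 on chromosome 5 that overlap each other and no further peak, both lists can be read at one site. The iPSC fold was the higher at 75.7% of the pairs on chromosome 2 (72.9 to 78.4%) and 75.9% on chromosome 5 (73.2 to 78.4%), against 77.1% on the others (76.5 to 77.6%). Summits lay a median of 19 bp apart on chromosome 2, 21 bp on chromosome 5 and 19 bp on the others. The background at pairs was 0.833 of that of the others in ESC and 0.852 in iPSC on chromosome 2, and 0.917 and 0.926 on chromosome 5. The median iPSC to ESC ratio of background was 0.522 on chromosome 2 and 0.512 on chromosome 5. The others together had 0.510 and ranged singly from 0.495 to 0.522, so neither chromosome lay outside the rest in this ratio.

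Single peaks of high fold were spread over both chromosomes. Among overlapping peaks of chromosome 2 the highest iPSC folds were 5.99 at 989984 to 990230 (ESC fold 3.18), 5.97 at 186397182 to 186397728 (ESC fold 1.58) and 5.90 at 16172136 to 16172369 (ESC fold 2.40). The first and second lay within 2 Mb of an end. Its ESC peaks of highest fold without overlap were at 14357538 to 14357741 (5.62), 138957620 to 138957818 (5.54) and 42227505 to 42227748 (5.48). The second of these lay inside the stretch from 137735928 to 139355162 without iPSC peaks. Its iPSC peaks of highest fold without overlap were at 137015731 to 137016003 (5.68), 27708069 to 27708286 (5.23) and 99567750 to 99568692 (5.16).

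On chromosome 5 the overlapping peaks of highest iPSC fold were at 7950715 to 7950975 (6.93, ESC fold 2.44), 16574556 to 16574841 (5.93, ESC fold 2.09) and 61030045 to 61030825 (5.73, ESC fold 1.24). The ESC peaks of highest fold without overlap were at 22100962 to 22101237 (7.14), 110313377 to 110313602 (5.54) and 129683704 to 129683904 (5.31). Of these, the first and the second lay inside stretches of at least 1 Mb without iPSC peaks, from 21267963 to 22506291 and from 109473964 to 110876397. The first of those stretches also had the most ESC peaks per Mb of the 24, at 38.0. Among iPSC peaks without overlap the highest folds were at 6037698 to 6039320 (6.16), 173157747 to 173158589 (5.73) and 29982019 to 29982283 (5.35). The first of these was 1623 bp wide and lay in the dense start of the chromosome.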

How the data were processed

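MeDIP and input libraries of baboon ESC and iPSC (24 libraries, 4 groups of 6) stand behind 2 peak lists, 1 per cell type. Per the submitters' processing notes, the tools used include deepTools, MACS2, Picard 2.239 and SAMtools 1.10. The aligner, genome build, peak caller options and pooling of libraries are not stated in the labels or headers. Each peak carries a linear fold, deposited by the authors as a ratio, with −log10 values of p and q deposited in further columns. The deposited score equals the last, multiplied by 10 and cut to a whole number, for most peaks (99.99% of ESC and 99.98% of iPSC peaks). Peak calling by the authors sets the smallest −log10 q (1.30 in both lists) and the narrowest width (177 bp for ESC, 190 bp for iPSC). Columns 5 and 7 to 10 of the lists were read.

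Members are all peaks of chromosomes 2 and 5. The members, lists and rules were chosen with earlier results of these data known. Windows of 1 Mb, stretches of at least 1 Mb without iPSC peaks, overlap of at least 1 bp, widths and classes of ESC count were computed with Python 3.11.15, numpy 2.4.6, pandas 2.3.3 and scipy 1.17.1, and drawn with matplotlib 3.10.9. Shares carry Clopper-Pearson intervals, densities exact Poisson intervals, ratios of densities conditional binomial intervals and medians order-statistic intervals, all 95%. No test was made, since each cell type has 1 list. Read depth per library is unknown.

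Pileup and background were recovered from these, with the formulas of a fold that adds 1 fragment above and below the line and a Poisson tail for p. The pileup was a whole number (ESC), or a whole number times 0.690 (iPSC, a factor fitted to the list), within 0.02 fragments before scaling, for 100% and 99.99% of peaks. Of 2000 simulated peaks per list made with the same formulas, 99.95% (ESC) and 99.9% (iPSC) were recovered, which checks the inversion, not the formulas. Where several solutions existed the nearest to a whole number was taken.

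By rule, the regions named are, per chromosome, the 5 longest stretches, the 3 windows with most ESC, most iPSC and fewest ESC peaks, the 3 peaks of highest fold per overlap class and the widest peak of each list. Segments and zones, other stretches and the longest ESC gaps were chosen after their values were seen. No genome of the build was at hand, so no sequence or gene is given.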

Additional observations from a re-analysis of the deposited data

How the results depend on the processing

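Both chromosomes stayed below the other autosomes in density and in iPSC per 100 ESC peaks under the alternatives of q, list length, merging and ends left out. These left out at most 20 Mb at each end. More than 40 Mb from an end, where chromosomes 16, 18, 19 and 20 have no part, chromosome 2 was above the others. It had 41.7 against 39.1 ESC and 8.52 against 7.56 iPSC peaks per Mb. There it had 20.4 iPSC per 100 ESC peaks against 19.3. Relative density on chromosome 2 in the ESC list was 0.639 with the ESC list at the iPSC length, 0.681 with peaks merged within 500 bp, 0.728 without 5 Mb, 0.787 without 10 Mb and 0.888 without 20 Mb at each end; in the iPSC list it was 0.575, 0.666 and 0.818 without these ends. On chromosome 5 it was 0.645 with the ESC list at the iPSC length and 0.642 (ESC) and 0.415 (iPSC) without 10 Mb, and 0.717 and 0.495 without 20 Mb. iPSC per 100 ESC peaks relative to the others went from 0.716 to 0.789 without 5 Mb, 0.846 without 10 Mb and 0.921 without 20 Mb on chromosome 2, and from 0.805 to 0.647 without 10 Mb and 0.691 without 20 Mb on chromosome 5. The 10 Mb and 20 Mb settings were chosen after seeing the data. After merging, chromosome 5 (38.9 ESC peaks per Mb) was below chromosome 2 (39.1).

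Windows without an iPSC peak were 11.1% (chromosome 2) and 17.4% (chromosome 5) at 0.5 Mb and 0% for both at 2 Mb, which follows from the size, and 4.76% and 8.70% at a −log10 q of at least 5. Stretches numbered 80 and 90 at 0.5 Mb or more, 1 and 0 at 2 Mb or more, and 27 on chromosome 2 at a −log10 q of at least 5, which leaves fewer peaks. The iPSC overlap share on chromosomes 2 and 5 was 61.1% and 59.3% at that q, against 57.9% on the others. With the ESC list at the iPSC length it was 30.0% and 29.6%, against 28.2%. For overlap of 50% of both peaks it was 61.4% and 60.7%, against 59.2%. At that q the interval of chromosome 2 (58.2 to 63.9%) overlapped that of the others (57.4 to 58.5%) only slightly. The ESC share was 23.3% and 26.0% at equal length (29.6% on the others) and 12.0% and 12.2% without 5 Mb (15.6%). It was 12.0% and 13.4% for 50% of both peaks (16.2%), and 14.5% on chromosome 5 at that q (17.3%). Median ESC widths were 207 and 209 bp at that q (212 bp on the others) and 213 and 215 bp after merging (218 bp). For moves other than those by construction the cause was not tested.

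No paired analysis was possible because the lists hold no column per replicate, which also kept replicates from being left out.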
